A study of Rattus norvegicus with 6 samples.

Results

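The calcitonin gene peptides Calca and Calcb, the peptide adrenomedullin (Adm), their shared receptor Calcrl and the receptor activity-modifying proteins Ramp1, Ramp2 and Ramp3 were followed in cultured rat Schwann cells in which the kinase Raf could be switched on. These 7 genes, of 14217 measured, were taken by gene symbol together with all 10 of their probe sets: 3 for Calca, 2 for Calcrl and 1 for each of the other 5 genes. The 7 were chosen with the tamoxifen and vehicle values of these arrays known, so their differences between the groups are given as a description and support nothing. Messenger RNA was measured on 6 Affymetrix arrays. In 3 tamoxifen samples, primary Schwann cells carrying an inducible RafER allele (the kinase Raf joined to an estrogen receptor hormone-binding domain that tamoxifen engages) were kept in minimal medium and given tamoxifen for 24 h. In 3 vehicle samples, the same kind of cells, also carrying RafER and also in minimal medium, received ethanol for 24 h. The labels give sciatic nerve as the tissue. The source labels name treated rats. The design text, followed here, describes treatment of plated cells in 3 independent experiments. The p-values below measure the spread between these samples. Both groups carry the allele and no RafER-free cells were analysed here, so effects of tamoxifen and of Raf cannot be told apart.

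Calcitonin gene-related peptide (CGRP) and adrenomedullin are short secreted peptides that widen blood vessels and act through the receptor encoded by Calcrl, which reaches the cell surface and gains its ligand preference only in a complex with a RAMP. With RAMP1 the complex is the CGRP receptor, and with RAMP2 or RAMP3 it is an adrenomedullin receptor, and these receptors chiefly raise cyclic AMP. In peripheral nerve CGRP is best known from sensory neurons, and cyclic AMP is a known signal for Schwann cell growth and myelination. The Calca transcript is spliced to encode either calcitonin or alpha-CGRP, and a separate gene, Calcb, encodes beta-CGRP.

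The stretch before the start of Calca, and those of Ramp1 and Ramp3, are printed because every tamoxifen value of these genes lay above every vehicle value. They were read from RefSeq windows of 250 bases before a start on GRCr8, of which 5 of the 7 genes had one (Calcb and Ramp2 did not match). Only bases outside the annotated gene span are printed, and capitals mark matches to the motifs named below. The last 59 bases of the Calca window and the last 85 of the Ramp1 window lay inside that span. Distances given below count from the start that the window precedes, not from the end of the printed stretch. Calca lies at chr1:178312636-178317588, and its printed stretch at chr1:178317589-178317779 is on the minus strand. Ramp1 lies at chr9:99213031-99263696 and its stretch at chr9:99212866-99213030, and Ramp3 lies at chr14:85741314-85758813 and its stretch at chr14:85741064-85741313, both on the plus strand.
Calca: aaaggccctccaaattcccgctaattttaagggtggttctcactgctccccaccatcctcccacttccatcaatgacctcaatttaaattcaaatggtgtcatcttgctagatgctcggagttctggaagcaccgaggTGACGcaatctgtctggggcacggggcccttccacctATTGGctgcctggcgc
Ramp1: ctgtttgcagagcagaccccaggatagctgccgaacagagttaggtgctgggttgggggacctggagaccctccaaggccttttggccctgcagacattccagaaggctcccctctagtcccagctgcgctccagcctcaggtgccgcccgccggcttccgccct
Ramp3: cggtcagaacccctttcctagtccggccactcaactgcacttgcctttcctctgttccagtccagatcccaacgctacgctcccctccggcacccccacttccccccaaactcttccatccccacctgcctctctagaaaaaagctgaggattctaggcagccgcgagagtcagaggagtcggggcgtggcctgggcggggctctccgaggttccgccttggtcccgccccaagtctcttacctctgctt
In these windows 8 motifs were searched on both strands: the cyclic AMP response element TGACGTCA and its core TGACG (which the full element contains), the AP-1 site TGANTCA, the hypoxia core ACGTG, the Egr site GCGNGGGCG, the ETS site CCGGAAG, the promoter element known as the CCAAT box and the TATA box core TATAA. The Calca window held 1 TGACG, beginning 112 bases before the start, and 1 CCAAT on the other strand, beginning 75 bases before it. TGACG occurred in 18.2% and CCAAT in 34% of all 33469 windows of that length, so neither match is rare. The Ramp1, Ramp3 and Calcrl windows held none of the 8 motifs. The Adm window, which lies inside the annotated gene span, held TATAA beginning 45 bases before the start and an overlapping match on the other strand. TATAA occurred in 24% of windows. The Ramp1 window was 70.0% G or C, that of Ramp3 61.6%, of Adm 58.8%, of Calca 56.4% and of Calcrl 43.6%. The median over all windows was 51.2%.

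Over the whole series, arrays of the same group correlated at 0.984 to 0.995 over probe sets, and arrays of different groups at 0.934 to 0.966. The vehicle array of experiment 1 stood apart by weaker signal at transcript 5' ends: averaged over 3 control transcripts, its 3' probes exceeded its 5' probes by 0.84 log2 units, and those of the remaining arrays by 0.16 to 0.27. Values are RMA expression values on a log2 scale, which compress differences of dim probe sets. The lower quartile of each array lay between 4.78 and 4.85, and no detection calls were used here, so values near it can be background. Probe sets differ in how well they bind, so levels are compared only within a probe set. In these bulk cultures fewer cells of a type and less RNA per cell cannot be told apart.

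Of the family, Calca, Ramp1, Ramp2 and Ramp3 were higher in tamoxifen-treated cells than in vehicle cells, and Calcb, Adm and Calcrl were low in both groups, with overlapping values. The differences were largest for Calca, then Ramp1, then Ramp3 and Ramp2, which lay within their standard errors of each other. Over the 10 probe sets, 6 were past an adjusted p of 0.05 in the limma fit over all probe sets, all of them higher, where 11.5% of 31042 probe sets were called higher. By brightest probe set 4 of the 7 genes were called higher, where 13.9% of all genes were. The same 6 probe sets had groups that did not overlap, as did 22.2% of all probe sets in that direction. Because this contrast was known when the genes were chosen, nothing is read from these counts. The median difference of the 7 genes was 1.29 log2 units, and over all genes it was 0.01.

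**Figure D1:**
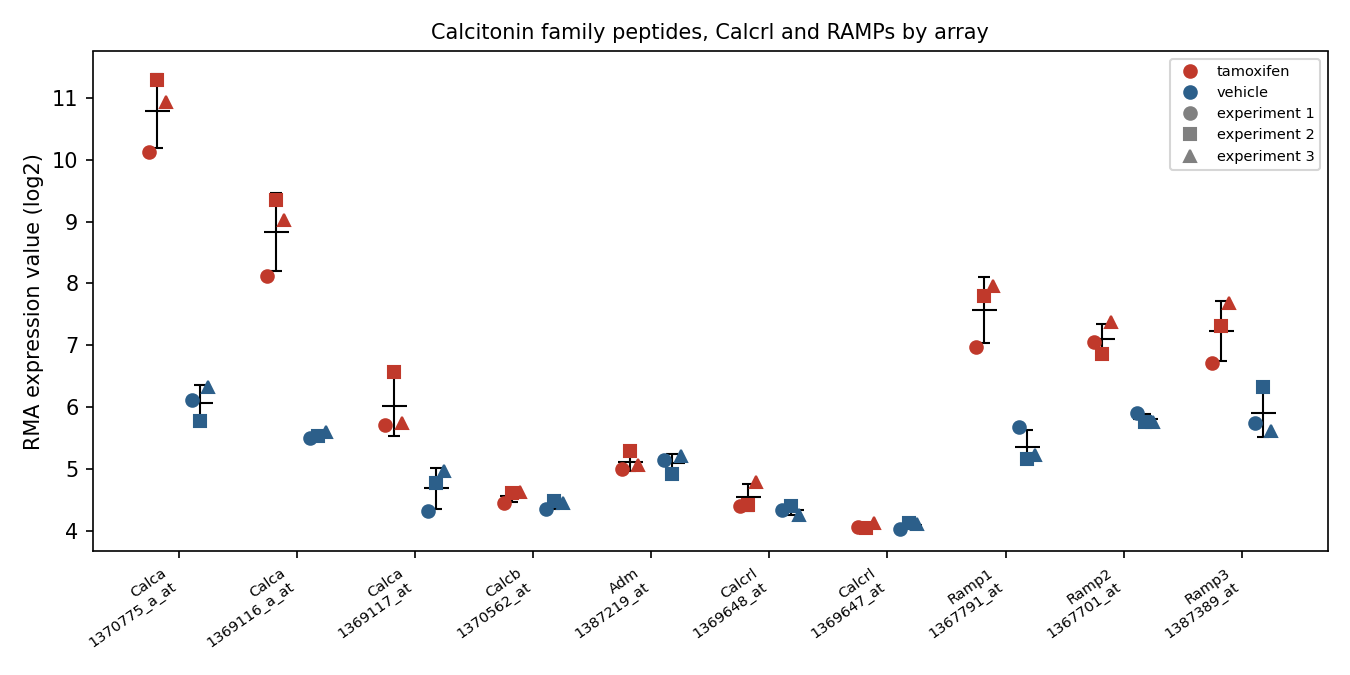
RMA expression value (log2, vertical axis) of the 10 probe sets of the 7 genes on every array, with tamoxifen in red and vehicle in blue, marker shape giving the experiment, and bars the mean and SD of 3 arrays. The groups are apart for the 3 Calca probe sets and for Ramp1, Ramp2 and Ramp3, while the values of Calcb, Adm and Calcrl overlap between 4.04 and 5.29.

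Among the ligands, Calca had the largest difference. Its brightest probe set, 1370775_a_at, read 10.13, 11.29 and 10.93 on the tamoxifen arrays of experiments 1, 2 and 3, against 6.11, 5.78 and 6.33 on the vehicle arrays (log2 values). Every tamoxifen value was at least 3.79 log2 units above every vehicle value, and tamoxifen array 1 was the lowest of its group. The means were 10.78 ± 0.60 in tamoxifen and 6.07 ± 0.28 in vehicle cells (SD, n = 3 each), a difference of 4.71 ± 0.30 (SE), or 26.1-fold. This difference ranked 10 among 14217 genes ordered from the largest rise.

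The other Calca probe sets gave the same direction with smaller differences. Probe set 1369116_a_at read 8.12, 9.35 and 9.02 with tamoxifen, against 5.51, 5.54 and 5.59 with vehicle, a difference of 3.28 ± 0.29 (SE). Here too array 1 was the lowest tamoxifen value, and the vehicle arrays lay close together. Probe set 1369117_at read 5.72, 6.57 and 5.75 with tamoxifen, against 4.32, 4.78 and 4.97 with vehicle, a difference of 1.32 ± 0.27 (SE). Its groups were still apart, by 0.75, but its vehicle values lay around the lower quartile of the arrays. The annotation ties the brightest probe set to another transcript record than the 2 others, and the suffix _a_at marks probe sets that recognise several transcripts of a gene. Which calcitonin or CGRP exons each one matches was not analysed here, so no splice form is named.

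Calcb, which lies near Calca on chromosome 1 (chr1:178399634-178404654) and encodes beta-CGRP, read 4.46, 4.61 and 4.63 with tamoxifen, against 4.36, 4.48 and 4.45 with vehicle. The groups overlapped, with all 6 values below the lower quartile of the arrays, and the difference was 0.14 ± 0.09 (SE). How far probes for either CGRP gene also bind the other's transcript was not analysed here. Adm, which encodes the vessel-widening peptide adrenomedullin and lies on the same chromosome (chr1:174164178-174182372), read 5.004, 5.29 and 5.06 with tamoxifen, against 5.14, 4.92 and 5.22 with vehicle. Its groups overlapped fully, and the difference was 0.02 ± 0.12 (SE), positive in experiment 2 alone.

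The receptor gene Calcrl (chr3:89835071-89932616) lay below the lower quartile of every array by both probe sets. Probe set 1369648_at read 4.40, 4.43 and 4.80 with tamoxifen, against 4.34, 4.41 and 4.26 with vehicle, a difference of 0.21 ± 0.13 (SE). Only tamoxifen array 3 stood above the other arrays. Probe set 1369647_at read 4.07, 4.05 and 4.14 with tamoxifen, against 4.04, 4.14 and 4.11 with vehicle, and its difference was -0.01 ± 0.08 (SE). At these levels a dim transcript and background cannot be told apart.

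All 3 RAMP genes, whose products carry the receptor to the surface, were higher with tamoxifen. Ramp1, the partner that makes the CGRP receptor, read 6.97, 7.80 and 7.95 with tamoxifen, against 5.68, 5.17 and 5.23 with vehicle. The groups were 1.29 apart, and experiment 1 held both the lowest tamoxifen and the highest vehicle value. The difference was 2.21 ± 0.28 (SE), or 4.64-fold, with means of 7.57 ± 0.53 in tamoxifen cells and 5.36 ± 0.28 in vehicle cells (SD, n = 3 each). Without both arrays of experiment 1 it was 2.67.

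Ramp2 (chr10:86689148-86690956), a partner for adrenomedullin, read 7.05, 6.86 and 7.37 with tamoxifen, against 5.91, 5.75 and 5.76 with vehicle. Its arrays were the tightest of the 3 RAMP genes, with groups 0.95 apart and a difference of 1.29 ± 0.14 (SE). Ramp3, the other adrenomedullin partner, read 6.72, 7.31 and 7.68 with tamoxifen, against 5.75, 6.33 and 5.62 with vehicle. Its groups were apart by 0.39, with vehicle array 2 above the other vehicle arrays, and the difference was 1.34 ± 0.28 (SE). Ramp3 was the member whose call in the limma fit depended on a single array: without tamoxifen array 2 its difference was 1.30 with an adjusted p of 0.0598. Ramp1, Ramp3 and Ramp2 ranked 166, 525 and 565 among 14217 genes.

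The differences also varied between experiments, when the tamoxifen and vehicle arrays of the same number were subtracted. For Calca they were 4.01, 5.51 and 4.60 log2 units in experiments 1, 2 and 3. For Ramp1 they were 1.29, 2.62 and 2.72, and for Ramp3 0.97, 0.98 and 2.05. Experiment 1 thus had the smallest difference for these 3 genes, though for Ramp3 experiment 2 was close to it. Tamoxifen array 1 was the lowest of its group for all 3. Vehicle array 1, which had weak 5' signal, was the middle vehicle value for Calca and Ramp3 and the highest for Ramp1. The part of that array in these differences was not tested. For Ramp2 they were 1.14, 1.11 and 1.61, with the smallest in experiment 2. Without vehicle array 1 the Calca difference was 4.73, against 4.71 with all arrays, that of Ramp1 was 2.37 and that of Ramp3 was 1.26.

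**Figure D2:**
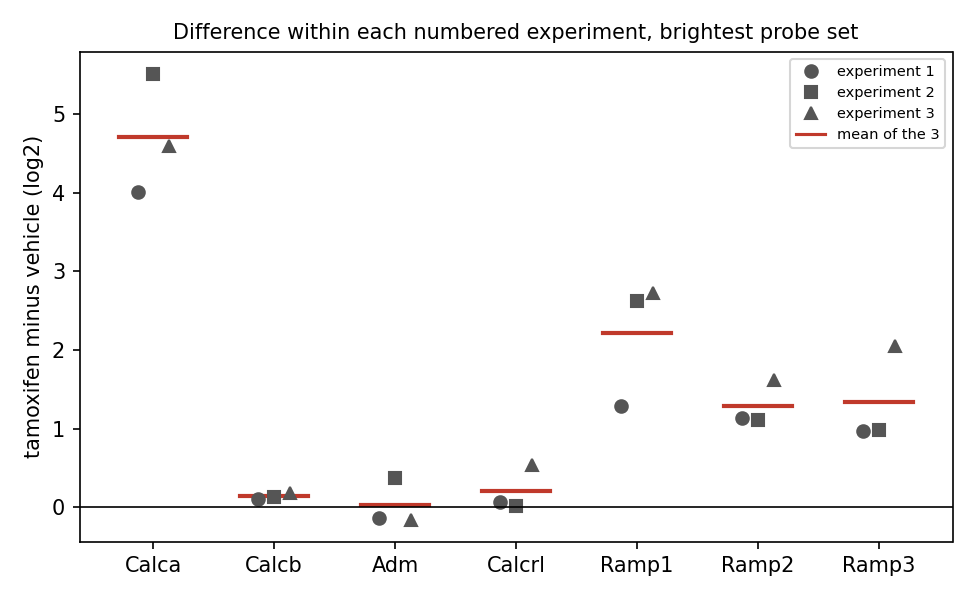
Tamoxifen minus vehicle (log2, vertical axis) within each numbered experiment for the brightest probe set of the 7 genes, with the red line at the mean of the 3 experiments. Every gene but Adm lies above 0 in all 3 experiments, and Adm lies on both sides of 0. For Calcb (0.10 to 0.18) and Calcrl (0.02 to 0.54) the values of the groups overlap at dim levels.

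Over the 6 arrays, the genes whose values ran most closely with the brightest Calca probe set were Ifrd1, Id2, Timm8a1 and Pclaf, with Pearson r between 0.998 and 0.999. They were picked from 1737 genes with a difference of at least 1 log2 unit. The points fall into 2 groups of arrays, and 727 of these genes had r of at least 0.9, so r is a description only. No member had a lower value with tamoxifen by its brightest probe set, so no gene was matched to a fall.

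Genes around the family were then read from 8 lists: related peptides and receptors, peptide processing, peptide breakdown, other neuropeptides, related class B receptors, cyclic AMP signalling, receptor desensitisation, and hypoxia-inducible genes, to which Adm is known to belong. Of 135 genes in these lists, 17 (12.6%) were called higher and 11 (8.15%) lower, where 13.9% and 17.3% of all genes were. Their median difference was 0.04. With experiment as a block, 18 of the 135 were called lower. Over all 31042 probe sets the block also raised the number called lower, from 4004 to 4584.

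None of the 5 measured relatives of the family was past the threshold in the limma fit (2 had an unadjusted p under 0.05). Of all genes, 13.9% were called higher and 17.3% lower. The calcitonin receptor gene Calcr averaged 4.69 ± 0.10 with tamoxifen and 4.45 ± 0.11 with vehicle (SD, n = 3 each). The amylin gene Iapp differed by 0.25 ± 0.09 (SE) and Crcp, a CGRP receptor component, by -0.27 ± 0.09. Ackr3, a scavenger receptor that also takes up adrenomedullin, ranged widely within both groups, from 6.90 to 9.14 with tamoxifen and from 6.96 to 8.39 with vehicle. Gpr182, once proposed as an adrenomedullin receptor, differed by 0.02 ± 0.11.

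Among 22 other neuropeptide genes, none was past the limma threshold, where 13.9% of all genes were called higher and 17.3% lower. Of these 22 genes, 2 had an unadjusted p under 0.05. Their median difference was 0.03, and the highest positive difference was 0.27. Galanin (Gal), a neuropeptide that injured neurons make, read 8.35, 7.85 and 6.26 with tamoxifen, against 10.55, 9.81 and 7.93 with vehicle. The groups overlapped because experiment 3 was low in both, while tamoxifen was lower in all 3 experiments. Gal differed by -1.94 ± 0.78 (SE) with an adjusted p of 0.124 in limma, and of 0.00128 with experiment as a block. It was picked out after its values were seen. None of the 11 class B receptor genes, the receptor class of Calcrl, was past the threshold in limma (0 also at an unadjusted p under 0.05).

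Of 18 genes for peptide processing and secretory granules, 2 rose (Scg2 and Vgf) and 2 fell, where 13.9% and 17.3% of all genes did. The number that rose was 1 without tamoxifen array 2 or any 1 vehicle array, the call lost being that of the granin gene Vgf (adjusted p 0.0518 to 0.0819). Scg2, which encodes the granule protein secretogranin II, read 6.49, 7.47 and 9.02 with tamoxifen, against 3.44, 3.44 and 4.01 with vehicle. Its groups did not overlap, the tamoxifen values spread widely, and it rose by 4.03 ± 0.59 (SE; limma, adjusted p = 0.00429). The vehicle values lay below the lower quartile of the arrays and can be background, so the size of this rise is uncertain. The proprotein convertase gene Pcsk6 fell by 1.96 ± 0.24 (adjusted p = 0.00233) and Pcsk1n, which encodes a convertase inhibitor, fell by 0.90 ± 0.16 (adjusted p = 0.00777). The granule gene Scg3 differed by -1.70 ± 0.52 (SE), with groups that did not overlap. It was just short of the threshold (limma, adjusted p = 0.0554) and past it with experiment as a block (0.00241). Of 12 genes for peptide breakdown, Enpep, an aminopeptidase gene, rose by 0.68 ± 0.12 and Ece1, endothelin-converting enzyme, fell by 0.92 ± 0.20. The second Enpep probe set differed by -0.13 (adjusted p = 0.386), and Ece1 was not past the threshold once tamoxifen array 1 (adjusted p = 0.0510) or 2 (0.0654) was left out. Ide was not called by its brightest probe set (0.38, adjusted p = 0.154). Its 2 other probe sets differed by 0.58 and 0.72 (limma, adjusted p of at most 0.0128).

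Downstream of the receptors, 7 of 37 cyclic AMP genes rose and 4 fell, where 13.9% and 17.3% of all genes did. The median difference of the 37 was 0.03. Prkar2b, a regulatory subunit of protein kinase A, rose by 1.49 ± 0.41 (limma, adjusted p = 0.0407). That call was lost in 5 of the 6 fits that left out 1 array, with adjusted p up to 0.129 without tamoxifen array 3, and held without vehicle array 3. The phosphodiesterase gene Pde7b rose by 1.41 ± 0.24 and the adenylyl cyclase gene Adcy5 fell by 1.38 ± 0.26, while another Adcy5 probe set differed by -0.02 (adjusted p = 0.943). Of 12 genes of receptor desensitisation and recycling, 3 rose and 1 fell, where the shares of all genes were again 13.9% and 17.3%. The receptor kinase gene Grk6 rose by 1.52 ± 0.17, and the beta-arrestin gene Arrb1 by 0.81 ± 0.08 (1.47 by its dimmer probe set). Grk4 fell by 1.04 ± 0.21, with -0.07 by its other probe set (adjusted p = 0.756).

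The hypoxia-inducible genes, with which Adm is usually grouped, split: 4 of 18 rose and 3 fell, where 13.9% and 17.3% of all genes did. The median difference of the 18 was 0.02. These 18 include Hif1a, Epas1 and Arnt, which encode subunits of hypoxia-inducible factors. Ddit4, an inhibitor of mTOR signalling, fell by 2.24 ± 0.22 (limma, adjusted p = 0.00123). The glycolytic gene Pgk1 rose by 0.93 ± 0.13, with 1.34 and 0.08 by its other probe sets, the last with an adjusted p of 0.513. Vegfa, a vessel growth factor gene, rose by 0.91 ± 0.21, and its call was lost without tamoxifen array 2 or 3 or vehicle array 2 or 3 (adjusted p 0.0659 to 0.0783). The other Vegfa probe set differed by 1.09 (limma, adjusted p = 0.00238). Without 1 array the number that rose ranged from 1 to 4, and with experiment as a block 5 fell. Among these was Epas1, with a difference of -1.20 (limma, adjusted p = 0.00244, against 0.120 without the block) and -0.11 by its other probe set.

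**Figure D3:**
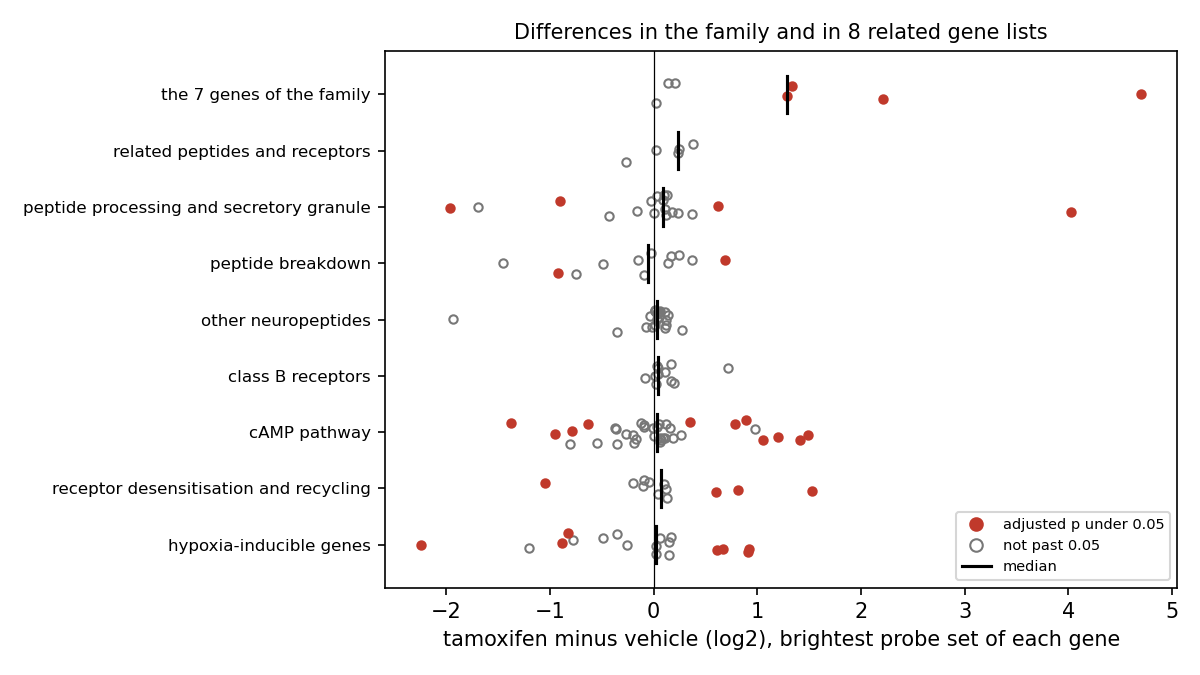
Tamoxifen minus vehicle (log2, horizontal axis) by brightest probe set for the 7 genes of the family (top) and for the genes of 8 related lists; filled red points are past an adjusted p of 0.05 in limma, open points are not, and black bars are medians. Calca at 4.71 and Scg2 at 4.03, whose vehicle values can be background, lie farthest to the right, and the medians of the 8 lists lie between -0.06 and 0.23.

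Markers of other cells that express the family were read beside these values. Over all genes, 13.9% were called higher and 17.3% lower. The share of all genes with an unadjusted p under 0.05 was not taken, so counts by that measure, here and above, are a description only. Sensory neurons are the main source of Calca in nerve: of 16 neuronal markers none rose and 1 fell in limma, where 3 had an unadjusted p under 0.05. Tubb3 fell by 2.39 ± 0.32 (SE), while its other probe set differed by 0.13. The summed linear value of the list ranged from 4056 to 6369 with tamoxifen and from 4587 to 11548 with vehicle, with the neurofilament genes Nefl and Nefm the brightest. The nociceptor channel genes Scn9a, Scn10a, Trpv1 and P2rx3 averaged 3.60, 5.71, 5.34 and 5.13 with tamoxifen, against 3.75, 5.45, 5.59 and 5.03 with vehicle. The other Trpv1 probe sets differed by -0.67 and -0.01, and that of P2rx3 by -0.08. Endothelial cells are rich in Calcrl and Ramp2: of 12 endothelial markers none rose and 1, Egfl7, fell by 0.49 ± 0.11, a call that depended on tamoxifen arrays 1 and 3 (adjusted p = 0.0563 and 0.0596 without each). The other Egfl7 probe set differed by -0.69 (limma, adjusted p = 0.00908). The summed value of the endothelial markers ranged from 569 to 613 with tamoxifen and from 621 to 697 with vehicle.

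Of 12 smooth muscle and pericyte markers none was past the threshold in limma (1 had an unadjusted p under 0.05), and of 11 macrophage markers none was (2 unadjusted). With experiment as a block Pdgfrb, a pericyte receptor gene, passed as lower, with a difference of -1.10 (adjusted p = 0.00209, against 0.257 without the block), and its other probe sets differed by -0.22 and 0.10. Their summed values ranged from 7993 to 9735 with tamoxifen and from 9609 to 11929 with vehicle for smooth muscle. For macrophages they ranged from 358 to 388 with tamoxifen and from 353 to 380 with vehicle. The brightest of these markers were Mcam and Tagln, and Lyz2 and Aif1. Of 12 fibroblast markers 3 rose and 3 fell, where 13.9% and 17.3% of all genes did. Their summed values were 20944 to 26847 with tamoxifen and 28541 to 31488 with vehicle. Postn and Col1a2 were the brightest, and Col1a2 fell by 0.46 ± 0.13 (adjusted p = 0.0478, and 0.0530 with experiment as a block). The Col1a2 call held among the fits without 1 array only in that without vehicle array 1. The rise of Pi16 was also lost with the block (adjusted p = 0.0736) and in every fit without 1 array (0.0631 to 0.122). It was lost too under median centring (limma, adjusted p = 0.0585) and quantile normalization (0.0560). Of 11 Schwann cell markers 4 fell and none rose (5 had an unadjusted p under 0.05), where 17.3% of all genes were called lower. Their summed value ranged from 12455 to 16715 with tamoxifen and from 29077 to 37626 with vehicle. S100b and Ngfr, the brightest by mean over all arrays, averaged 12.35 and 11.46 with tamoxifen, against 13.11 and 12.99 with vehicle. These means lay far above the upper quartile of the arrays (8.51 to 8.62). In vehicle cells alone Pmp22 was brighter, at 13.18. Sox10, the transcription factor that defines the lineage, averaged 10.68 with tamoxifen and 11.58 with vehicle (adjusted p = 0.104, and 0.0300 with experiment as a block). The S100b call held without tamoxifen array 3 but in no other fit without 1 array (adjusted p 0.0514 to 0.116), and that of Ngfr was lost without tamoxifen array 2 alone (0.0551). Pmp22 fell by 2.18 ± 0.33 (SE) and Mbp by 1.96 ± 0.29. Both calls held in every fit without 1 array (limma, adjusted p up to 0.0237 and 0.0217). The other Pmp22 probe set differed by -2.18, and those of Mbp by -1.74 and -1.02. The part of these markers in the values of the family was not tested.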

How the data were processed

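RNA from 6 samples was hybridised to Affymetrix rat arrays. The deposited log2 values per probe set came from RMA, per the submitters' processing notes (version not given in the sources used here), a method of background correction, between-array normalisation and probe summary. Values ran from 2.99 to 14.58. Of all probe sets, 57 manufacturer controls were left out, 20826 had 1 gene symbol and 436 had several, and the latter were not named. Symbols came from GEO's platform annotation, and 20764 matched RefSeq (GRCr8) by Entrez identifier. For each of 14217 genes the brightest probe set, by mean over all arrays, was used.

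Tamoxifen was compared with vehicle with limma 3.58.1 (lmFit, eBayes; R 4.3.3), two-sided, with Benjamini-Hochberg adjustment over 31042 probe sets. The genes and lists were chosen with earlier results of these data known. Named list genes are up to 3 past the threshold with the largest change, and up to 2 of the brightest markers per cell type. Outside this rule, and after their values were seen, the measured relatives of the family, Vgf, Gal, Tubb3, Scn9a, Scn10a, Trpv1 and P2rx3 were also named. So were Scg3, Ide, Hif1a, Epas1, Arnt, Pdgfrb, Pi16, Sox10, Pmp22 and Mbp. The pairing of numbered experiments was checked: after subtraction of group means, same-number arrays from the titles correlated at 0.26, 0.20 and 0.28, so experiment was used as a block in an alternative. Others were each array left out, other scalings, a filter on dim probe sets (log2 of at least 6 on 3 arrays), another variance model and averaging the probe sets of each gene. The omission of both arrays of experiment 1 was added after seeing the data. The number of arrays limits the precision. An exact permutation test of 3 against 3 arrays was not used.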

Additional observations from a re-analysis of the deposited data

How the results depend on the processing

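The 6 member probe sets called higher stayed 6 under the replicate block, median centring, quantile normalization and the trend and robust variance model. Leaving out 1 array gave 5 or 6, the loss being Ramp3. The filter on dim probe sets kept 5 of the 10 member probe sets, all of which were at 6 or above on every tamoxifen array, so that count supports nothing. Calca differed by 3.10 with the mean of its probe sets in place of the brightest, and Ramp1 by 2.67 without both arrays of experiment 1. With 1 array left out, the range was 4.45 to 5.04 for Calca, 2.02 to 2.51 for Ramp1, 1.15 to 1.40 for Ramp2, 1.12 to 1.59 for Ramp3, 0.10 to 0.19 for Calcb, 0.08 to 0.28 for Calcrl and -0.06 to 0.08 for Adm. The same omissions gave 2427 to 3424 probe sets higher and 2668 to 3771 lower over the series, the 2668 without tamoxifen array 2. Over the 8 lists they gave 11 to 16 genes higher, with 11 without tamoxifen array 2 or vehicle array 2, and 10 to 16 lower. Over all probe sets the replicate block gave 4584 lower, against 4004 without it. The block gave 18 list genes lower, against 11 without it. It changed the calls of 9 of the 135 list genes, 8 gained and 1 lost, and of no member probe set. Of 74 marker genes it changed 4 calls, gaining Pdgfrb and Sox10 and losing Col1a2 and Pi16. The causes were not tested.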
